A study of Mus musculus with 92 samples.

Results

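The uninjured right tibialis anterior muscle was compared between mice killed soon after the left muscle had been injured and mice killed weeks later. The comparison asks what the opposite leg shows soon after injury. Its members were the libraries of the opposite leg at 3 h (n = 3 mice), 10 h (n = 5) and 24 h (n = 5), called early, and at 14 days (n = 5), 21 days (n = 3) and 28 days (n = 5), called late. These were 26 libraries, 13 early and 13 late, of the 80 in the gene table and the 92 in the sample labels. They were chosen by leg and time alone.

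All mice were male C57BL/6J, 10 weeks old at injury, and each was killed at 1 time point. The left tibialis anterior was exposed through the skin and frozen with a steel probe cooled on dry ice, and the right leg was left untouched. Every mouse, early or late, had received fentanyl, droperidol and diazepam for anesthesia and buprenorphine for pain. No muscle of a mouse without an injury was among the libraries used, so the late opposite leg was the reference. Time since the injury cannot be told apart from time since anesthesia, analgesic and surgery, nor from age, which was 10 weeks at the early and 12 to 14 weeks at the late time points. Time of day at harvest was not given in the sources used here.

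Levels were FPKM, fragments of a gene scaled to the length of its transcripts and to the size of the library. Whole muscle was sequenced, so fewer cells of a type and less RNA per cell cannot be told apart. The sum of FPKM over all genes ran between 350761 and 422785 in the early libraries and between 359525 and 523947 in the late libraries, and 8550 to 9285 genes per early library and 8636 to 9580 per late library stood above 1 FPKM. The skeletal muscle fiber markers summed to 35850 to 48750 FPKM in the early and 35130 to 59760 FPKM in the late libraries.

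One early animal stood apart. Animal 03 at 24 h has 2 libraries of the opposite leg, A and B, and the labels do not say what these letters stand for. They were averaged, but 2540 of the 9269 genes tested differed at least 2-fold between them, against 219 to 536 between any 2 of the other 24 h animals (6 pairs) and 64 to 577 between 2 late animals of 1 time point (23 pairs). Mt2, for instance, was at 3.19 FPKM in library A and 820 FPKM in library B. Library A lay near or inside the late ranges for many of the genes below and library B far above them, so results are given with both averaged and, where it matters, with A alone or without the animal.

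Injury, surgery and drugs act on the whole body as well as on the wounded site. Glucocorticoids from the adrenal gland bind a receptor that enters the nucleus and turns on genes in muscle that restrain glucose use and growth, and cytokines in the blood turn on acute phase genes in many tissues. Metallothioneins are small cysteine-rich proteins that bind zinc and copper, and their genes respond to metals and to both kinds of signal. Skeletal muscle also keeps a circadian clock, in which transcription factors and their repressors rise and fall over the day.

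Of 9269 genes tested with limma, 75 were called early against late (adjusted p under 0.05 and at least 2-fold, 0.809% of those tested). Of these, 65 were higher early (0.701%) and 10 lower (0.108%). These shares are the background for the early against late counts of gene lists below. Without animal 05 at 14 days 6 were lower. With a difference of any size, 675 genes were higher (7.28%) and 906 lower (9.77%) at an adjusted p under 0.05, and the median difference over all genes tested was -0.04 on the log2 scale. For 72 of the 75, the means at 3 h, 10 h and 24 h all lay on the same side of the late mean. Without animal 03 at 24 h there were 55 calls, 47 higher and 8 lower, of which 54 were among the 75. With library A alone there were 44 calls, 38 higher and 6 lower. With library B alone there were 89, 69 higher and 20 lower. A core of 43 genes, 37 higher and 6 lower, was called under all 4 treatments of this animal, and the genes described below belong to it unless said otherwise.

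**Figure D1:**
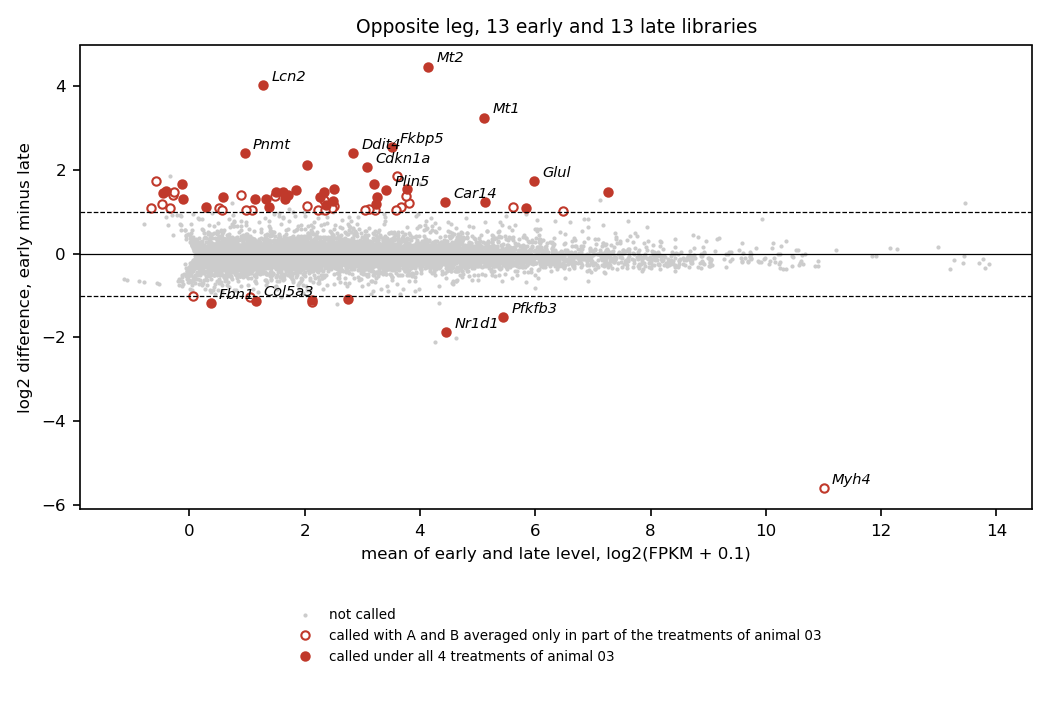
Each point is 1 of the 9269 genes tested, with the mean level of the 26 opposite-leg libraries on the x axis (log2(FPKM + 0.1)) and the log2 difference, early minus late, on the y axis. Filled points are the 43 genes called under all 4 treatments of animal 03 at 24 h and open points the other called genes; the called genes lie mostly above 0, with Mt2 at 4.47 and Lcn2 at 4.04.

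The largest rise was that of the metallothionein gene Mt2, which lies beside its relative Mt1 on chromosome 8 (mm9, 96696518 to 96697467 and 96702989 to 96704227). Mt2 read 156, 101 and 128 FPKM at 3 h. At 10 h it read 135, 51.9, 218, 12.3 and 17.6 FPKM. At 24 h it read 22.8, 98.0, 8.14 and 26.7 FPKM in the other animals and 412 FPKM in animal 03. The late libraries lay between 1.28 and 5.05 FPKM with a median of 2.59 FPKM, below every early library, although library A of animal 03 taken alone, at 3.19 FPKM, lay among them. Mt2 was 4.47 ± 0.47 higher early on the log2 scale (SE, adjusted p = 6.65e-07), 3.93 with library A alone and 4.24 without the animal. Its difference from late was 5.53 (3 h), 4.22 (10 h) and 4.08 (24 h), the last 3.29 without animal 03 (adjusted p = 0.0016).

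Mt1 ran from 21.4 to 539 FPKM over the early libraries with a median of 87.8 FPKM, and from 6.47 to 14.5 FPKM over the late libraries with a median of 8.35 FPKM. The groups did not overlap, also with library A alone, where it stood at 16.1 FPKM. The difference was 3.25 ± 0.35 on the log2 scale (SE, adjusted p = 7.98e-07). Of the 8 tested genes of the list for metallothioneins and zinc transport, these 2 were called, and both under every treatment of animal 03. Slc39a14, which imports zinc, differed by 0.94 (adjusted p = 0.0415) and fell short of 2-fold, while Mtf1, the factor that senses zinc, differed by 0.01 (adjusted p = 0.948).

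The promoters of Mt2 and Mt1 are shown because they carry the elements by which these genes are known to answer metals. Each window runs from 250 bases before to 50 after the start in RefSeq (GRCm38.p6, plus strand), chr8:94172368-94172667 for Mt2 and chr8:94178839-94179138 for Mt1. Capitals mark the core of the metal response element, TGCACNC or TGCGCNC on either strand, found 4 times in Mt2 and 3 times in Mt1.
Mt2: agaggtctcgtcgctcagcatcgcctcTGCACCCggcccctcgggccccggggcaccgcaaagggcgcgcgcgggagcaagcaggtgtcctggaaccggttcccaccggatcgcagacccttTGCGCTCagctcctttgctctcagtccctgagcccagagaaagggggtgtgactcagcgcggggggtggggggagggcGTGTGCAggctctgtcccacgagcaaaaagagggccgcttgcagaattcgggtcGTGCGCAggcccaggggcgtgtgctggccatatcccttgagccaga
Mt1: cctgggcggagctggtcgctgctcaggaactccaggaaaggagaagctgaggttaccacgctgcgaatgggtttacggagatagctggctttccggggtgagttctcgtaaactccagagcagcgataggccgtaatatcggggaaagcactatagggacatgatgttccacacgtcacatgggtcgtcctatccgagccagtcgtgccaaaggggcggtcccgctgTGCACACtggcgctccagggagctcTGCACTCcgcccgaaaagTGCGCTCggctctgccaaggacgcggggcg
At least 1 such core stood in 25.7% of 32851 promoter windows and 3 or more in 1.97%. Of the 45 called genes named by the rule of selection, 39 had a window, and 14 of these held the core, 5 held an E-box (CACGTG, in 7.2% of all windows) and 4 the letters TGTTCT, to which a single glucocorticoid receptor can bind (in 19% of all windows). A gene was counted if any of its windows held the letters, while the percentages are of single windows, so the counts and percentages are not in the same unit. A match describes the letters only.

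Lcn2, which encodes lipocalin 2, an iron-siderophore binding protein of the acute phase response, rose by more than Mt1 and less than Mt2. It read 5.22, 4.50 and 4.47 FPKM at 3 h. At 10 h it read 8.37, 4.17, 18.3, 2.38 and 1.88 FPKM. At 24 h it read 9.04, 10.1, 5.41 and 8.25 FPKM, and 71.3 FPKM in animal 03, whose library A was at 2.20 FPKM. Late libraries ranged from 0.130 to 1.30 FPKM with a median of 0.290 FPKM, so that the groups were apart whichever library of animal 03 was used. The difference was 4.04 ± 0.38 on the log2 scale (SE, adjusted p = 1.78e-07), and at 24 h it was 4.86, or 4.23 without animal 03. Neutrophils also make this protein, and the sum of the neutrophil markers is given with the other cell types. The tested markers of that list differed by 0.97 (S100a8, adjusted p = 0.235) and 1.22 (S100a9, adjusted p = 0.0597), and their part in the rise was not tested. Only 9 of the 9269 genes tested (0.0971%) had early and late libraries that did not overlap, 7 with the early libraries higher (0.0755%) and 2 with them lower (0.0216%). Among the 75 called, these were Mt2, Mt1, Lcn2, Pnmt and Car14, and with library A alone they were Mt1 and Lcn2.

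**Figure D2:**
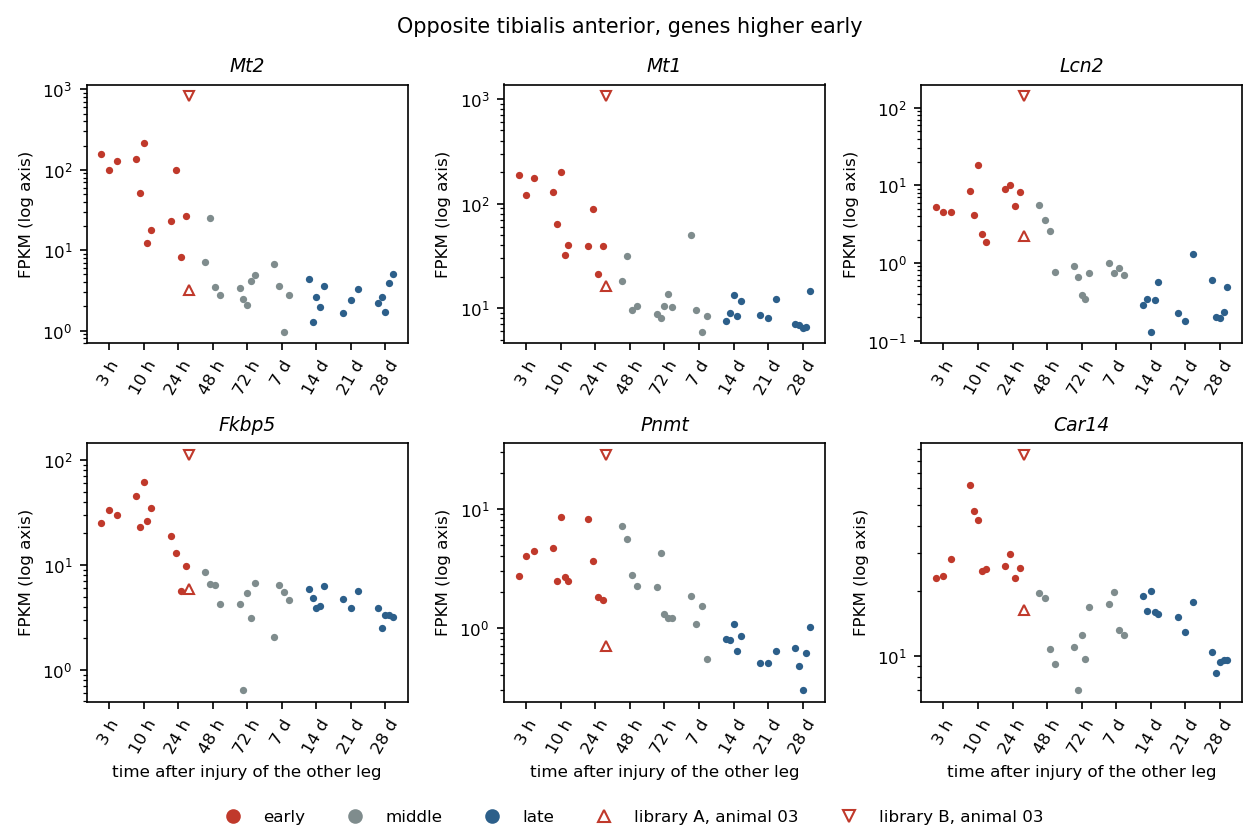
FPKM of 6 genes that were higher early (Mt2, Mt1, Lcn2, Fkbp5, Pnmt and Car14) in each opposite-leg library, on a log axis, by time after injury of the other leg; triangles are libraries A (up) and B (down) of animal 03 at 24 h. Early points sit above the late ones, except that library A of animal 03 reaches down to the late range of Mt2, Fkbp5, Pnmt and Car14 and the lowest other Fkbp5 value at 24 h (5.61 FPKM) lies in it too.

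The list of acute phase and IL-6 signaling genes had 4 of 18 tested members called higher and 0 lower, and its median difference was 0.65, against -0.04 over all genes. With time point as a random block 2 were called, without Serpina3n (adjusted p = 0.0558 with an estimated correlation) and Cebpd (adjusted p = 0.0786). The 4 called in the main fit were Lcn2, Serpina3n, an acute phase inhibitor of proteases, Cebpd, a transcription factor of that response, and Il6ra, a receptor subunit for IL-6. Serpina3n was highest at 24 h, with 4.20, 5.37, 0.850 and 0.858 FPKM and 9.97 FPKM in animal 03, against 0.132 to 0.684 FPKM late. Its 3 h libraries, at 0.215, 0.422 and 0.649 FPKM, lay within the late range. At 24 h it differed by 3.03 (adjusted p = 0.000421), or 2.59 without animal 03, and the difference was 1.67 ± 0.44 over all early libraries (SE, adjusted p = 0.0119).

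Cebpd differed by 1.41 ± 0.40 (SE, adjusted p = 0.0174), and by 2.04 at 3 h. Il6ra passed with both libraries averaged (1.40, adjusted p = 0.0067) but was not tested with library A alone, where its level fell under the minimum. Stat3, which carries the IL-6 signal to the nucleus, was higher by 0.67 (adjusted p = 0.00113) and Osmr, the oncostatin M receptor, by 0.71 (adjusted p = 0.00129), both under 2-fold. Some members were called at a single early time only. These were Osmr, Cebpb and Pim3 at 3 h, Socs2 at 10 h and Fgl2 at 24 h. Fgl2 was not called there without animal 03 (adjusted p = 0.088). Il6 itself was at or below 0.373 FPKM in every early animal, with A and B of animal 03 averaged, and 0.236 FPKM in every late library. It stood at 0.692 FPKM in library B of animal 03 and was not tested. Of the cytokines and chemokines listed, 4 passed the minimum level and 0 were called early against late. All 4 were lower early, by less than 2-fold. They were Ccl11 (-0.76, adjusted p = 0.00958), Cxcl14 (-0.55, adjusted p = 0.0478), Cxcl12 (-0.48, adjusted p = 0.00866) and Csf1 (-0.34, adjusted p = 0.173). Of the single early times, Ccl11 was called at 10 h only.

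Glucocorticoid-responsive genes made up the list with the most calls. Of 19 tested, 7 were higher and 0 lower, against 65 and 10 of 9269 over all genes. The median difference over the list was 0.76. Of the 7, 5 were called under every treatment of animal 03. The 5 were Fkbp5, Ddit4, Glul, Cdkn1a and Pik3r1. Tsc22d3 and Sesn1 passed with the libraries averaged but not under all treatments.

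Fkbp5 encodes a co-chaperone that holds the glucocorticoid receptor in a state of low affinity. It read 25.0, 33.6 and 29.9 FPKM at 3 h. At 10 h it read 45.7, 22.9, 61.9, 26.4 and 34.5 FPKM. At 24 h it read 19.05, 12.9, 5.61 and 9.68 FPKM and, in animal 03, 58.6 FPKM. Late libraries lay between 2.51 and 6.24 FPKM (median 3.90 FPKM), so that 12 of the 13 early libraries were above all late ones and 1 at 24 h was not. The difference was 2.54 ± 0.27 on the log2 scale (SE, adjusted p = 6.65e-07). By time it was 2.80 (3 h), 3.09 (10 h) and 1.85 (24 h), the last 1.36 without animal 03 (adjusted p = 0.00466).

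Ddit4 encodes REDD1, an inhibitor of mTORC1, and its rise lay at 3 h. It averaged 70.8 ± 30.1 FPKM there (SD, n = 3), against 1.73 ± 0.74 FPKM late (SD, n = 13), which is 5.28 on the log2 scale (adjusted p = 2.06e-05). At 10 h it differed by 1.53 (adjusted p = 0.0789) and at 24 h by 1.54 (adjusted p = 0.137), so neither passed. Without animal 03 the 24 h difference was 0.41 (adjusted p = 0.651). The differences at the 3 early times were unequal (F test in limma, adjusted p = 0.0106). Over all early libraries Ddit4 was higher by 2.40 ± 0.60 (SE, adjusted p = 0.00781).

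Glul, glutamine synthetase, read 144, 213 and 223 FPKM at 3 h and between 68.8 and 253 FPKM at 10 h, against 19.2 to 51.2 FPKM late. At 24 h the animals other than 03 read 29.9 to 64.5 FPKM, 3 of these 4 within the late range. Its difference was 2.68 (3 h), 1.92 (10 h) and 0.99 (24 h), the last not past the threshold (adjusted p = 0.105). Cdkn1a, the cell cycle inhibitor p21, was higher by 2.06 ± 0.44 (SE, adjusted p = 0.0024), with 10 of 13 early libraries above all late ones. At 24 h, however, it differed by 2.21 with animal 03 (adjusted p = 0.0316) and by 1.41 without (adjusted p = 0.202).

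Pik3r1, the regulatory subunit of PI3 kinase, followed another course. It read 14.9, 11.3, 28.1, 9.89 and 12.7 FPKM at 10 h, all above the late range of 1.70 to 3.57 FPKM. At 3 h it read 3.17, 4.02 and 4.09 FPKM, next to or inside that range. The difference was 2.50 at 10 h (adjusted p = 5.65e-07) and 0.59 at 3 h (adjusted p = 0.231). Tsc22d3, which encodes GILZ, and Per1 rose at 3 h by 2.02 and 2.29 (adjusted p = 1.57e-05 and 0.00039), and neither passed at 10 h. Zbtb16, a zinc finger factor, rose at 3 h by 1.68. Cited2 of the same list was called lower at 3 h and differed by -0.35 over all early libraries (adjusted p = 0.248). Errfi1 (0.54), Sgk1 (0.36), Klf9 (0.14) and Dusp1 (0.05) of that list were called neither over all early libraries nor at a single early time. The receptor gene Nr3c1 itself differed by 0.30 over the early libraries (adjusted p = 0.0881).

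Pnmt, which encodes the enzyme that methylates noradrenaline to adrenaline, was higher by 2.40 ± 0.26 on the log2 scale (SE, adjusted p = 6.65e-07). Early libraries ran from 1.72 to 14.5 FPKM with a median of 3.63 FPKM and late libraries from 0.296 to 1.08 FPKM with a median of 0.638 FPKM. Its difference was 2.32 (3 h), 2.32 (10 h) and 2.53 (24 h), the last 2.1 without animal 03 (adjusted p = 0.000908); library A of that animal read 0.706 FPKM, within the late range. Car14, a membrane-bound carbonic anhydrase, was higher by 1.22 ± 0.17 (SE, adjusted p = 3.97e-05). It ran from 23.0 to 61.5 FPKM early and from 8.38 to 20.1 FPKM late, with library A at 16.4 FPKM.

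The 3 early time points were not alike. Against late, 248 genes were called at 3 h (2.67% of 9281 tested), 152 higher (1.64%) and 96 lower (1.03%). At 10 h there were 136 (1.46% of 9322), 81 higher (0.869%) and 55 lower (0.59%). At 24 h there were 49 (0.529% of 9256), 42 higher (0.454%) and 7 lower (0.0756%). The count at 24 h depended on animal 03: it was 20 with library A alone, 67 with library B alone and 14 without the animal, while it was 26 without animal 02 and 80 without animal 04. The 14 left without animal 03 included Mt2, Mt1, Lcn2, Serpina3n, Fkbp5 and Pnmt. A test among 3, 10 and 24 h passed for 529 genes (5.71% of 9269), and 26 of the 75 called genes were among them. That count was 1120 with library A alone and 214 with library B alone, 277 to 290 when 1 of the 3 h animals was left out, and 928 without animal 05 at 28 days. Among 14, 21 and 28 days 0 genes passed in limma, with 1092 at an unadjusted p under 0.05 and a smallest adjusted p of 0.293.

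**Figure D3:**
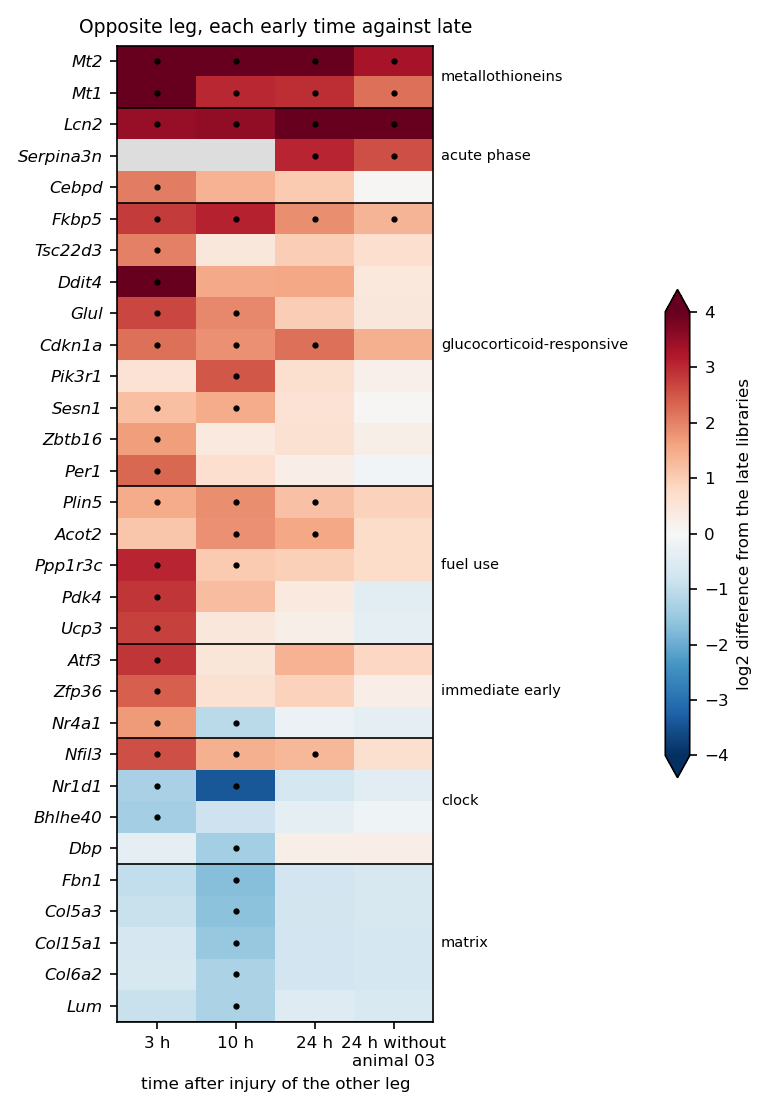
Log2 difference from the late libraries of selected genes (down the page), with a column for each early time and a last one for 24 h without animal 03, on a color scale that ends at -4 and 4. Dots mark calls and grey cells were not tested; Ddit4 and Ppp1r3c are marked at 3 h, Pik3r1 at 10 h and the metallothioneins in every column.

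Among genes of fat and sugar use, the list of fatty acid use genes had 4 of 23 tested members higher and 0 lower (median 0.38). Plin5, a lipid droplet protein of oxidative tissue, was higher at every early time, by 1.5 (3 h), 1.87 (10 h) and 1.17 (24 h). It ran from 9.51 to 27.2 FPKM early and from 2.86 to 9.65 FPKM late (1.52 ± 0.19, SE, adjusted p = 1.45e-05), with 12 of 13 early libraries above all late ones. Without animal 03 the 24 h difference was 0.92 (adjusted p = 0.0535), no longer a call. Acot2 and Acot1, near-identical acyl-CoA thioesterases among which the estimate of FPKM may divide fragments, were higher by 1.54 (adjusted p = 0.00237) and 1.48 (adjusted p = 0.00362). At 24 h without animal 03 Acot2 differed by 0.75 (adjusted p = 0.202). Acot1 and the mitochondrial carrier Slc25a34 were not called under all treatments of animal 03.

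At 3 h 6 of 23 tested fatty acid use genes were higher and 0 lower (median 0.58), Pdk4 and Ucp3 among them. Over all genes, 152 of 9281 were higher and 96 lower at 3 h. Pdk4, the kinase that shuts pyruvate dehydrogenase, averaged 473 ± 84.4 FPKM at 3 h (SD, n = 3), against 73.6 ± 38.9 FPKM late (SD, n = 13), a difference of 2.85 (adjusted p = 0.00522). Ucp3, a mitochondrial carrier of muscle, averaged 174 ± 26.5 FPKM at 3 h (SD, n = 3), against 27.4 ± 8.96 FPKM late (2.72, adjusted p = 0.000103). Over all early libraries neither passed (1.28, adjusted p = 0.0522 for Pdk4 and 0.90, adjusted p = 0.0866 for Ucp3). Ppp1r3c, which targets a phosphatase to glycogen, was higher by 3.06 (3 h) and 1.05 (10 h) and differed by 0.96 at 24 h, under 2-fold. Foxo1, a transcription factor of fasting and atrophy, averaged 12.9 ± 0.14 FPKM at 3 h (SD, n = 3), against 1.55 ± 0.26 FPKM late (2.99, adjusted p = 2.28e-05). Its targets Trim63 and Fbxo32, ubiquitin ligases of muscle atrophy, were not called early against late (0.69, adjusted p = 0.115 for Trim63). The list of fasting and atrophy genes had Foxo1 as its only call early against late among 23 tested. Foxo3 differed by 0.79 (adjusted p = 0.00593), under 2-fold, and was called at 3 h.

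Immediate early factors, the genes that answer a stimulus first, had 3 of 20 tested members higher (Atf3, Btg2 and Zfp36) and 0 under library A alone. With time point as a random block 1 was called, without Atf3 (adjusted p = 0.0945 with an estimated correlation) and Zfp36 (adjusted p = 0.0564). At 3 h 6 were higher and 0 lower. The list of p53 targets and growth arrest genes, which shares Btg2, Cdkn1a and Sesn1 with other lists, had these 3 of 11 tested members higher. Atf3, a stress-induced factor, differed by 2.86 at 3 h and 0.47 at 10 h. Nr4a1, a nuclear receptor that muscle induces on adrenergic signals, was higher at 3 h by 1.71 (adjusted p = 0.000201) and lower at 10 h (-1.07, adjusted p = 0.00316). Its mean was 92.1 ± 20.1 FPKM for the 3 h animals and 13.6 ± 4.02 FPKM for the 10 h animals, against 28.9 ± 9.40 FPKM late (SD, n = 3, 5 and 13). Its relative Nr4a3 was higher at 3 h by 3.27.

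Clock genes differed by time point. Nr1d1 encodes the repressor REV-ERB alpha and read 16, 12.3 and 13.7 FPKM at 3 h. At 10 h it read 3.16, 3.79, 2.25, 4.89 and 2.39 FPKM. At 24 h it read 32.9, 28.3, 13.8 and 31.2 FPKM, and 10.4 FPKM in animal 03. Late libraries ran from 24.0 to 50.4 FPKM with a median of 33.7 FPKM, so that all 3 h and 10 h libraries and 2 of the 24 h libraries lay below them. The difference was -1.87 ± 0.36 over all (SE, adjusted p = 0.00108). It was -1.29 at 3 h and reached -3.39 at 10 h (adjusted p = 3.88e-11), while the -0.69 of 24 h did not pass (adjusted p = 0.0769).

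The list of the repressor and D-box arm of the clock had 0 of 13 tested members higher and 1 lower over all early libraries, but 4 higher and 2 lower at 3 h and 0 higher and 3 lower at 10 h. Per1 and Per2, repressors of the clock, were higher at 3 h by 2.29 and 1.61. Bhlhe40, another repressor, was lower at 3 h (-1.37, adjusted p = 0.000232). Dbp, a D-box factor of the clock's output, was lower at 10 h (-1.35, adjusted p = 0.00377). Nfil3, which competes with Dbp at D-boxes, was higher at each early time, by 2.58, 1.43 and 1.33 at 3, 10 and 24 h, but at 24 h without animal 03 it had an adjusted p of 0.104. The activators Arntl and Clock differed by -0.24 (adjusted p = 0.467) and -0.14 (adjusted p = 0.475). Whether the early and late mice were killed at the same hour cannot be told from the labels, so time of day and time since injury cannot be told apart here.

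**Figure D4:**
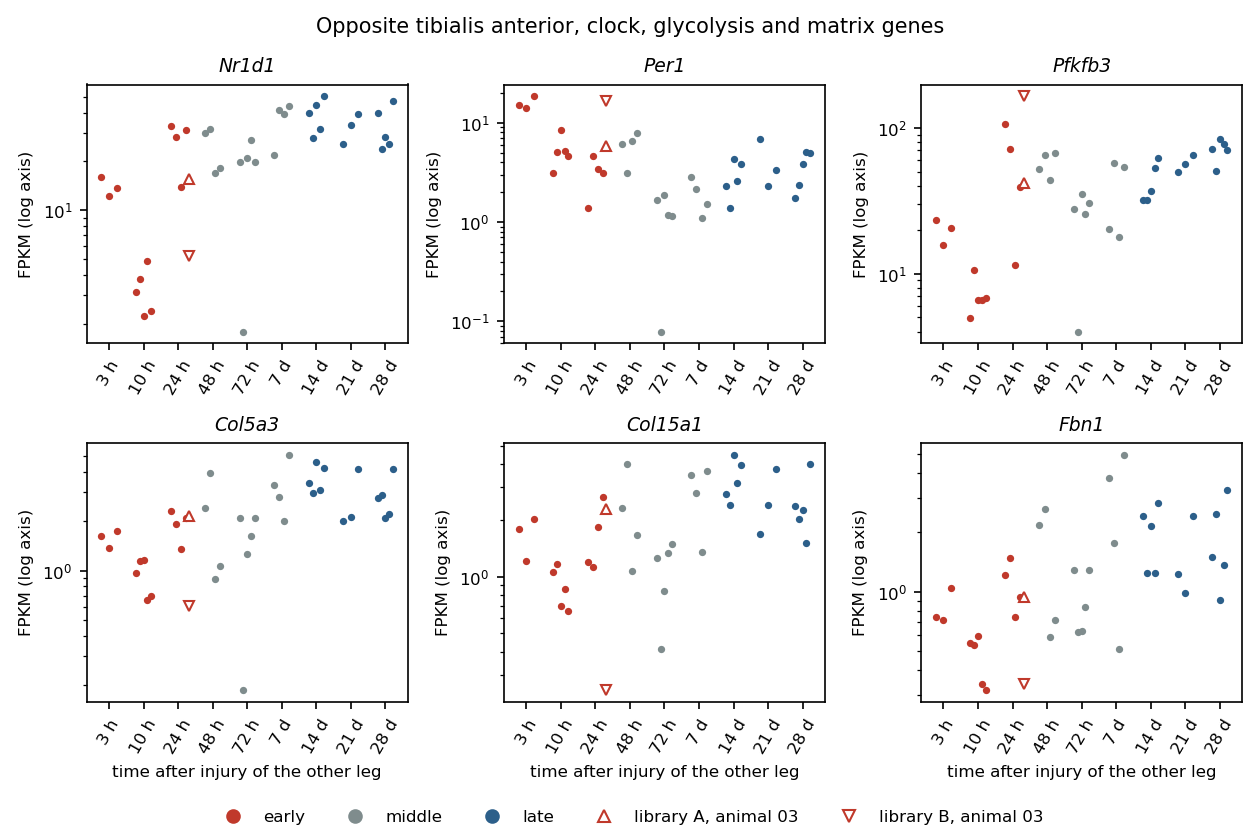
FPKM of 6 genes in each opposite-leg library on a log axis, by time after injury of the other leg: Nr1d1, Per1 and Pfkfb3, and the matrix genes Col5a3, Col15a1 and Fbn1. Nr1d1 and Pfkfb3 are lowest at 10 h (2.25 to 4.89 and 4.95 to 10.6 FPKM), Per1 is highest at 3 h, and triangles are libraries A (up) and B (down) of animal 03 at 24 h.

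Pfkfb3, which makes the activator of glycolysis fructose 2,6-bisphosphate, was lower over the early libraries (-1.51 ± 0.41, SE, adjusted p = 0.0131). It read 23.3, 15.7 and 20.5 FPKM at 3 h and 4.95, 10.6, 6.57, 6.62 and 6.82 FPKM at 10 h, all below the late range of 32 to 84.1 FPKM. At 24 h it read 107, 71.7, 11.5 and 39.5 FPKM, with 103 FPKM in animal 03, within that range and on both sides of it. The 3 early times were unequal (F test in limma, adjusted p = 0.000123).

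Some matrix genes were lower, most of them at 10 h. Of 22 tested collagens and matrix genes 0 were higher and 3 lower early against late (median -0.42), and at 10 h 0 of 21 were higher and 7 lower (median -0.80). Over all genes tested, 10 of 9269 were lower early against late and 55 of 9322 at 10 h. Col5a3, a chain of type V collagen, averaged 1.42 ± 0.51 FPKM early and 3.13 ± 0.91 FPKM late (SD, n = 13 each), a difference of -1.12 ± 0.17 (SE, adjusted p = 0.00011), and 11 of 13 early libraries lay below all late ones. Fbn1, fibrillin of elastic microfibrils, averaged 0.758 ± 0.33 FPKM early and 1.85 ± 0.78 FPKM late (SD, n = 13 each; -1.18, adjusted p = 0.00059). Col15a1, of the basement membrane, differed by -1.04 (adjusted p = 0.000631), but not by 2-fold with library A alone (-0.98, adjusted p = 0.00231).

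At 10 h the calls also took in Col1a1 (-1.04), Col3a1 (-1.25), Col6a2 (-1.26) and the proteoglycan Lum (-1.26). Over all genes tested at 10 h, 81 of 9322 were higher and 55 lower. Of the fibroblast markers 0 of 10 were higher and 5 lower at that time (Dcn, Dpt, Smoc2 and, shared with the matrix list, Lum and Col1a1). Ly6a, another fibroblast marker, had the opposite sign early against late, with a difference of 0.74 (adjusted p = 0.000637), under 2-fold. They summed to 129 to 536 FPKM in the early libraries with a median of 245 FPKM, and to 213 to 731 FPKM in the late libraries with a median of 314 FPKM. Their part in the result was not tested. Of the called falls that belong to no list, Cited4, a transcription co-regulator, differed by -1.11 (adjusted p = 0.000588) and Scand1 by -1.07 (adjusted p = 0.0026).

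Some genes of muscle itself were higher. Myog, a myogenic factor that rises when fibers lose their nerve, averaged 3.84 ± 3.90 FPKM early and 1.14 ± 0.40 FPKM late (SD, n = 13 each; 1.30, adjusted p = 0.00393). Of the single times it was called at 24 h only, and not there without animal 03 (1.36, adjusted p = 0.088). Its relative Myod1 differed by -0.06 (adjusted p = 0.887). Musk, a kinase of the nerve-muscle synapse, differed by 1.04 (adjusted p = 0.00657), and not by 2-fold with library A alone. The list of denervation and synapse genes had 2 calls, Musk and Mybph, both higher. With time point as a random block 1 was called, without Mybph (adjusted p = 0.0596 with an estimated correlation). Chrne (-0.05) and Hdac9 (-0.61, adjusted p = 0.0151) of that list had the opposite sign, and its other tested members were higher without a call. Slc7a2, a carrier of arginine and lysine, was higher at 10 h by 2.51 (adjusted p = 1.63e-11) and at 3 h differed by 0.37 (adjusted p = 0.201). Myh4, the fast myosin heavy chain, was listed at 0 in 5 early libraries, all 3 of the 3 h ones among them, and between 763 and 3535 FPKM in the other 8. The 763 FPKM of animal 03 averaged 1527 FPKM in library A and 0 in library B. The call of Myh4 (-5.60, adjusted p = 0.04) rested on the zeros. It was lost with library A alone (adjusted p = 0.0563) and with time point as a random block (adjusted p = 0.0919). The difference turned to 0.022 (adjusted p = 0.949) with values of 0 treated as missing.

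Cell type markers gave the following. Of the neutrophil markers 2 of 12 reached the minimum level and 0 were called, and the list summed to 1.17 to 60.3 FPKM early (median 3.90 FPKM) and 1.16 to 24.4 FPKM late (median 1.69 FPKM). Without animal 03 the highest early sum was 13.7 FPKM, and the groups overlapped either way. S100a9 ran from 0.522 to 6.91 FPKM early (median 1.10 FPKM) and from 0.199 to 8.94 FPKM late (median 0.399 FPKM). Its difference of 1.22 missed the threshold, and it was called in 9 of 46 other fits, quantile normalization among them (adjusted p 0.006 to 0.285 over these fits). S100a8 was called at 24 h with animal 03 averaged, but not without it (1.69, adjusted p = 0.163). Fcnb of this list was listed at 0 in every late library. Markers of monocytes and macrophages had 1 of 7 tested called, Ly6c2, whose fragments may be shared with its near copy Ly6c1, and summed to 9.49 to 82.5 FPKM early and 16 to 63.4 FPKM late. Ly6c1, which is not on that list, was also called higher under every treatment of animal 03. Without that animal it averaged 83.8 FPKM early and differed by 1.10 (adjusted p = 2.47e-05). Ly6c2 averaged 1.7 FPKM over the early libraries. No marker of T, B or mast cells reached the minimum. Of 7 tested adipocyte markers 2 were called higher, Plin4 and Cidea. The others were not called: Fabp4 differed by 0.02, and Car3 (-0.16), Cfd (-0.25), Adipoq (-0.22) and Retn (-0.40) had the opposite sign. Of 14 interferon-stimulated genes, 78 cytosolic ribosomal protein genes and 80 respiratory chain genes tested, 0 were called. Over all genes 75 of 9269 were called, so 0 calls in lists of this size say little about their members. Of 16 heat shock genes tested 0 were called, though 8 were higher at an adjusted p under 0.05, among them Hsph1 (0.65, adjusted p = 0.000271). Over all genes, 675 of 9269 were higher at that adjusted p. At 3 h the inducible Hsp70 genes Hspa1a (1.61, adjusted p = 0.00215) and Hspa1b (1.61, adjusted p = 0.00148) were called, near-identical copies between which fragments may be divided. Their 3 h means were 1.72 ± 1.03 FPKM for Hspa1a and 1.19 ± 0.66 FPKM for Hspa1b (SD, n = 3), against 0.441 ± 0.19 FPKM and 0.293 ± 0.12 FPKM late (SD, n = 13).

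At the times between, 48 h (n = 4), 72 h (n = 5) and 7 days (n = 4), 0 of 9190 genes tested were called against late in limma (0% of those tested), with 281 at an unadjusted p under 0.05. Leaving out animal 02 at 72 h and animal 02 at 7 days gave 2 calls, among them Pnmt (1.40, adjusted p = 0.0487). Lcn2 read 5.55, 3.62, 2.56 and 0.764 FPKM at 48 h, and 3 of these 4 lay above the late range. By 72 h it read 0.343 to 0.904 FPKM, inside it. Mt2 read 7.11, 24.8, 3.5 and 2.76 FPKM at 48 h, so that 2 animals lay above the late range, 2.07 to 4.91 FPKM at 72 h, and 0.971 to 6.83 FPKM at 7 days, when animal 02 lay above the late maximum of 5.05 FPKM. Pnmt averaged 4.42 ± 2.31 FPKM (48 h), 2.04 ± 1.32 FPKM (72 h) and 1.24 ± 0.56 FPKM (7 days, SD), and over these times its difference from late was 1.48 (adjusted p = 0.146).

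The injured leg of the early mice (n = 12) was compared with their opposite leg (n = 13), with A and B of animal 03 averaged in both legs. This fit had no term for the mouse or the time point. Its SE and adjusted p therefore leave the pairing of the legs unused. Of 10131 genes tested 1138 were called (11.2%), 1108 higher in the injured leg (10.9%) and 30 lower (0.296%). Some genes that were high in the early opposite leg were far higher in the injured one. Mt2 averaged 1373 ± 622 FPKM in injured and 107 ± 113 FPKM in opposite muscle (SD), a difference of 4.37 ± 0.50 (SE, adjusted p = 1.32e-07). Mt1 differed by 3.58, Lcn2 by 3.01, Serpina3n by 4.18, Atf3 by 4.15 and Cdkn1a by 2.24, all called.

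Others were not called between the legs. Fkbp5 averaged 20.9 ± 12 FPKM in injured and 29.7 ± 17.4 FPKM in opposite muscle (SD; -0.51 ± 0.37, SE, adjusted p = 0.264). Pnmt differed by -0.70 ± 0.34 (SE, adjusted p = 0.09), Ddit4 by -0.71 ± 0.74 (SE, adjusted p = 0.448) and Glul by 0.39 ± 0.39 (SE, adjusted p = 0.43). A missed threshold does not show that the legs were equal in these genes. Car14 was lower in injured muscle, with 16.7 ± 7.17 FPKM, against 33.1 ± 12.8 FPKM in opposite muscle (SD; -1.06, adjusted p = 0.00105).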

How the data were processed

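RNA of tibialis anterior muscle was measured per gene as FPKM. Per the methods of the study, polyadenylated RNA was turned into libraries that keep the strand, TopHat placed the read pairs on the mouse genome (mm9), and the authors obtained the deposited FPKM from the Cufflinks suite. Whether these carry the library scaling of Cuffdiff was not stated, and read counts are not given, so depth per gene is unknown. The table holds 23811 genes. The deposited isoform table was not used, nor was the opposite-leg library of unknown time in any comparison. Libraries A and B of animal 03 at 24 h were averaged.

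Genes with a mean of at least 1 FPKM in either group were tested with limma 3.58.1 (lmFit, eBayes with trend; R 4.3.3) on log2(FPKM + 0.1), a scale that understates changes of low genes, with Benjamini-Hochberg adjustment over all genes tested. A call needed an adjusted p under 0.05 and 2-fold. An alternative took time point as a random block (consensus correlation 0.11). Single time points were fitted with a spread shared over the groups. The procedure was tested on simulated data. Animal numbers are reused at each time point and do not pair early with late mice. They do pair the legs of 1 mouse (correlation of deviations -0.0644 to 0.477 over 12 pairs). Nothing says whether libraries of 1 time point were prepared apart. The main early against late fit had no term for time point. Its p-values therefore measure the spread between these mice and also between the time points of a period.

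Named were called members of the gene lists and up to 15 rises and 15 falls of largest size with all 3 early means on 1 side of late; other list members are given as values. Car14, Slc7a2 and Ly6c1 were chosen after their values were seen. A result of 1 gene is not reported here. The comparison and the gene lists were chosen with earlier results of these data known. Coordinates are 1-based mm9, and promoters RefSeq GRCm38.p6.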

Additional observations from a re-analysis of the deposited data

Results flagged for a closer look

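Single libraries far from the other 4 of their group were looked for in 37 genes at the time points with 5 libraries. Of 148 such groups 33 held a high library that stood apart. The nominal rate of the rule is about 5%, but the groups share libraries and the genes were those of the text. Whether the count exceeds chance was therefore not tested. At 24 h all 20 were animal 03, the average of the unlike libraries A and B. In FPKM, that animal read 412 for Mt2, 539 for Mt1, 71.3 for Lcn2, 58.6 for Fkbp5 and 116 for Ddit4. It read 123 for Cdkn1a, 265 for Glul, 73.1 for Nfil3, 48.4 for Cebpd and 13.2 for Pik3r1. It read 68.5 for Acot2, 854 for Pdk4, 160 for Ucp3, 16.3 for Atf3 and 25.8 for Zfp36. It read 50.6 for Car14, 16.8 for Foxo1, 1337 for Trim63, 12.2 for Musk and 50.5 for S100a8, a neutrophil gene.

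The remaining 13 were in other animals. At 10 h animal 03, another mouse than that of 24 h, read 62.6 FPKM for Cdkn1a, 28.1 FPKM for Pik3r1, 362 FPKM for Ppp1r3c, 4.40 FPKM for Foxo1 and 153 FPKM for Trim63. At 28 days animal 05 read 14.5 FPKM for Mt1, 4.21 FPKM for Cdkn1a, 51.2 FPKM for Glul, 0.684 FPKM for Serpina3n, 44.2 FPKM for Nr4a1 and 25.4 FPKM for Lum. At 14 days animal 01 read 3.74 FPKM for Ddit4 and animal 03 read 1.69 FPKM for Atf3.

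Of the 37 genes looked at, 13 had differences from late that were unequal among 3, 10 and 24 h by limma's F test. The 37 were genes of the text and not a sample of all genes. Over all 9269 genes tested the same test passed for 529, a count that changed with library A or B of animal 03 alone. The adjusted p was 0.0106 for Ddit4, 0.0271 for Serpina3n, 0.00974 for Tsc22d3, 0.000843 for Pik3r1, 0.000468 for Ppp1r3c and 0.00503 for Ucp3. It was 2.92e-05 for Nr4a1, 3.38e-06 for Nr1d1, 0.0212 for Per1, 0.0227 for Dbp, 0.000123 for Pfkfb3, 0.0212 for Col5a3 and 0.00827 for Foxo1.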

How the results depend on the processing

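The depth of the libraries is unknown, there are 3 to 5 mice at a time point, and the count of calls depends on animal 03 at 24 h and on the pseudocount. With a pseudocount of 1 there were 38 calls early against late (35 higher, 3 lower), 127 (3 h), 60 (10 h) and 23 (24 h) at single times. With no fold threshold there were 1581 (675 higher, 906 lower), 1066 (3 h), 1372 (10 h) and 393 (24 h) at single times. With library A of animal 03 alone there were 44 (38 higher, 6 lower), 20 at 24 h and 1120 among the early times, and with library B alone 20 lower calls and 214 among the early times. Without the 24 h libraries there were 120 calls (27 lower), without the 28 day libraries 44 (29 higher) and without the 14 day libraries 6 lower. With a minimum of 5 FPKM in place of 1 there were 6 lower calls, as without both animal 03 at 24 h and animal 05 at 28 days, a choice made after seeing the data like that of A or B at single times. Quantile normalization gave 1150 genes among the early times. The middle times gave 2 calls without animal 02 at 72 h and animal 02 at 7 days, also chosen after seeing the data. With time point as a random block there were 62 calls (54 higher, 8 lower). The sign of Myh4 turned to 0.022 with values of 0 treated as missing.

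Leaving out 1 library at a time gave 55 to 87 calls (47 to 77 higher, 6 to 11 lower), 194 to 265 (3 h), 112 to 143 (10 h) and 14 to 80 (24 h), where at 24 h the count was 26 without animal 02, 14 without animal 03 and 80 without animal 04. Among the early times it gave 277 to 928, with 277, 290 and 286 without each of the 3 h animals, 348 without animal 04 at 10 h, 352 and 333 without animals 01 and 02 at 24 h, and 928 without animal 05 at 28 days. It gave 0 to 2 among the late times (2 without animal 05 at 21 days), 0 to 1 at the middle times and 938 to 1292 between the legs. The lower calls numbered 6 without animal 05 at 14 days.

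With the animal number as a replicate block, early against late gave 55 calls (43 higher, 12 lower), 45 of them shared with the 75. Same-numbered early and late mice did not deviate together (26 pairs, median correlation -0.032, 5 above 0.1). With the mouse as a replicate block the legs gave 1123 calls. The cause of these changes was not tested.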

Other observations

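One library of the opposite leg has no time in its label and entered no comparison. It read 2.74 FPKM for Mt2, 8.16 FPKM for Mt1, 0.523 FPKM for Lcn2, 4.87 FPKM for Fkbp5 and 0.628 FPKM for Pnmt. It read 33.1 FPKM for Nr1d1 and 14.5 FPKM for Car14. These lay inside the late range of each gene, and those of the 6 genes other than Nr1d1 lay below every early library.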
